A study of Homo sapiens with 18 samples.

Results

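A set of 9 genes of growth factor signalling was followed through 18 RNA-seq libraries of SH-SY5Y, a human neuroblastoma cell line. The genes code for the neurotrophin receptors NTRK2, NTRK3 and NGFR, the receptor tyrosine kinase RET with its co-receptors GFRA1, GFRA2 and GFRA3, the receptor tyrosine kinase ALK, and the neurotrophin BDNF. They were listed by gene name, with earlier results of these data known, and make up 9 of the 58735 genes in the deposited count table. All 9 were found, and all 9 were abundant enough to be among the 23231 genes tested. In every library the cells had grown for 7 days in medium with 2% serum and all-trans retinoic acid at 10 µM, which drives them to a neuron-like state, and then received water (the Control group) or an opioid receptor ligand for 15 min. The ligands were the agonists morphine at 193 nM, TRV130 at 200 nM and beta-endorphin at 200 nM, the compound labelled metamorphine at 169 nM, and the antagonist naloxone at 200 nM. Each of the 6 groups held 3 libraries. SH-SY5Y is a tumour-derived line, so all 18 libraries share 1 genetic background, and whether the 3 libraries of a group are separate cultures is not stated. The p-values therefore rest on a spread between libraries that may be technical.

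Neurotrophins signal through the Trk receptor tyrosine kinases and through NGFR, the p75 neurotrophin receptor, which lacks a kinase domain. NTRK2 (TrkB) binds BDNF, and in SH-SY5Y cells its appearance after retinoic acid treatment has long been used to obtain BDNF-responsive neuron-like cells. RET is activated when a ligand of the GDNF family binds a GFRA co-receptor held to the membrane by a lipid anchor; GFRA1 prefers GDNF, GFRA2 neurturin and GFRA3 artemin. ALK is a receptor of the developing sympathetic nervous system that is mutated or amplified in a subset of neuroblastomas. Gene-level counts do not separate the full-length from the kinase-lacking forms of NTRK2 and NTRK3.

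Total counts ran from 21211449 to 33123855 per library. Library names end in a numeric code whose meaning the labels do not give. The 3 codes are called A (7 libraries), B (6 libraries) and C (5 libraries) here. The codes of TRV130 1 and TRV130 2 carry an extra leading digit and were read as A, so that TRV130 has 2 libraries in code A, 1 in code B and none in code C, while every other group has 1 in each. Markers of noradrenergic neuroblastoma cells, such as PHOX2A, HAND2 and DBH, summed to 4615 to 6154 CPM (counts scaled to library size by TMM) in every library. The summed markers of Schwann cells and glia reached at most 14.13 CPM, those of immune cells 12.91 CPM and those of epithelial cells 15.34 CPM, each of these maxima in Control 1. That library also held 20888 reads in protein-coding genes whose median count was 0, against 276 to 3074 in the other libraries. The libraries Control 1, TRV130 1 and TRV130 2, all of code A, stood apart in a further way: genes spanning over 100 kb lay at a median of -0.37, -0.17 and -0.13 on the log2 scale relative to their own means over 18 libraries. The 15 other libraries ran from -0.08 to 0.14.

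Per kilobase of exon, RET was by far the most abundant of the 9 genes and NTRK3 the least. Levels of different genes were compared as RPKM, that is CPM per kilobase of exon. RET averaged 387.2 RPKM ± 102 (SD, n = 18), ALK 20.3 ± 8.41, NTRK2 16.2 ± 4.17 and NGFR 7.04 ± 2.87 RPKM. Below these stood GFRA3 with 2.74 ± 0.942 RPKM, GFRA1 with 1.16 ± 0.243, BDNF with 0.651 ± 0.126, GFRA2 with 0.366 ± 0.153 and NTRK3 with 0.181 ± 0.0551 RPKM. RET exceeded ALK in 18 of 18 libraries, and their ranges did not overlap. ALK and NTRK2 overlapped: ALK was the higher in 12 of 18 libraries. NTRK2 exceeded NGFR, NGFR exceeded GFRA3, GFRA3 exceeded GFRA1 and GFRA1 exceeded BDNF in 18 of 18 libraries each, although only the ranges of GFRA3 and GFRA1 did not overlap among these pairs. BDNF exceeded GFRA2 in 15 libraries and GFRA2 exceeded NTRK3 in 17. The receptor RET thus had a level 247.1 to 480.5 times that of GFRA1, 36.7 to 320.9 times that of GFRA3 and 375.4 to 2260 times that of GFRA2, per exon length. Among its co-receptors, GFRA3 was the most abundant in this measure. In CPM, without the division by exon length, RET was again the highest but the order below it differed. GFRA2 was then the lowest, at a mean of 2.09 CPM against 4.84 for NTRK3. NTRK2 averaged 329.5 CPM against 149.5 for ALK, and GFRA1 11.2 CPM against 5.59 for GFRA3.

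**Figure D1:**
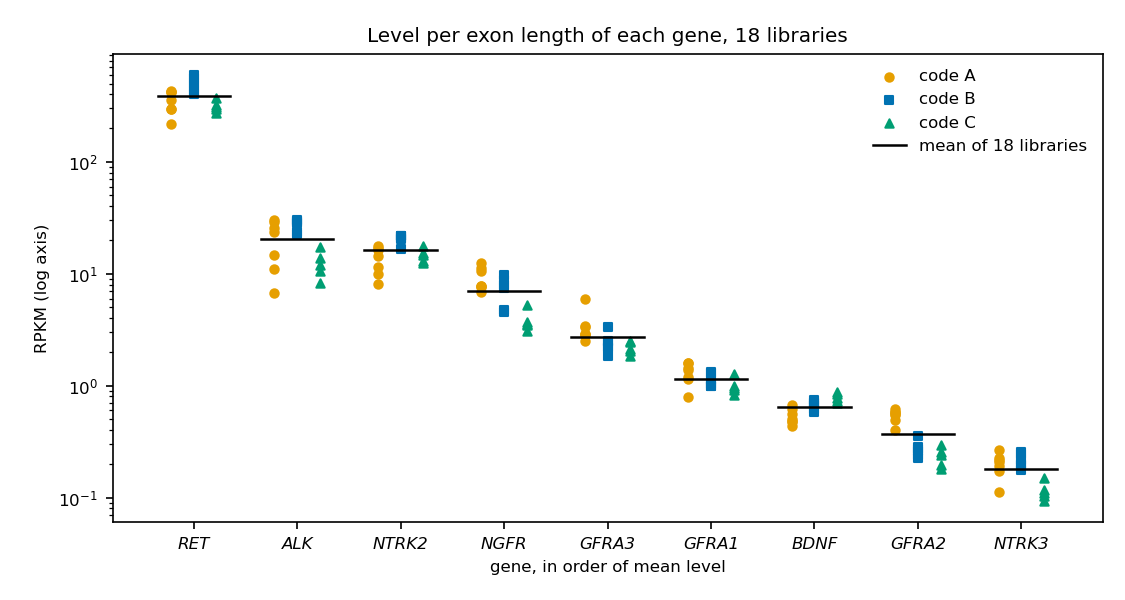
Level per exon length (RPKM, log axis) of the 9 genes in the 18 libraries, with a symbol per library code and a line at the mean. RET stands alone at the top, ALK and NTRK2 overlap, and NTRK3 is lowest at a mean of 0.181 RPKM.

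RET, ALK and NTRK3 are the 3 genes whose libraries of code C all lay below those of code B (20.3% of tested genes did), so the sequences just upstream of their annotated starts are shown on the strand of the gene, from RefSeq on GRCh38.p14: up to 250 bases, ending before the first base of the gene in GENCODE 29. Capitals mark GGGCGG on either strand, the GC box bound by Sp factors.
RET, chr10:43076819-43077026, plus strand: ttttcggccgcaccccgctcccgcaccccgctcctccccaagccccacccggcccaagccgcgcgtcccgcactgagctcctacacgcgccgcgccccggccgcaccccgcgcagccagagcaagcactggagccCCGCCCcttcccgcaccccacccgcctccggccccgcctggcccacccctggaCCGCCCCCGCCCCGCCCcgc
ALK, chr2:29921587-29921836, minus strand: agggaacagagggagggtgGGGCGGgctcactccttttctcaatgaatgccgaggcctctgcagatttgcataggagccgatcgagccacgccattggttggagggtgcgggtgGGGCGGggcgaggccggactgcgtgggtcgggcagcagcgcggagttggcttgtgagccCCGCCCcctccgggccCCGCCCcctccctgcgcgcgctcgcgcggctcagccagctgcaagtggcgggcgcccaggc
NTRK3, chr15:88256769-88256989, minus strand: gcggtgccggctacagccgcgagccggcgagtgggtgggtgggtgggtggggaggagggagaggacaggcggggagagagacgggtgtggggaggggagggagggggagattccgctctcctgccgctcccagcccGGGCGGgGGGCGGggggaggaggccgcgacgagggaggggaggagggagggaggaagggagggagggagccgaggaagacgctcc
The 208 bases of RET held 4 matches at a GC content of 80.8%, 3 of them close together at the 3′ end. The 250 bases of ALK held 4 matches at 71.6% GC, and the 221 bases of NTRK3 held 2, next to each other, at 75.6% GC. RefSeq windows of 250 bases before a start were matched for 7 of the 9 genes, 19 windows in all, and GGGCGG was found in 10 of the 19, against 42.5% of 34943 windows of all genes. AGGTCA, the half-site of nuclear receptors such as those for retinoic acid, was found in 0 of the 19 windows and in 12.1% of all windows, searched on both strands. These are matches of letters within 250 bases and say nothing about binding.

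Levels of all 9 genes differed between the library codes, while no gene passed the test in any comparison of ligands. With treatment in the model, any difference among the 3 codes was called for 9 of 9 genes (edgeR quasi-likelihood test, Benjamini-Hochberg adjusted p under 0.05 over all tested genes), in a table where 57.8% of tested genes were called. The code alone took up from 27.2% of the variance of log2 CPM, for GFRA1, to 86.0%, for GFRA2, and the treatment group alone from 9.68% to 36.1%. These shares were not adjusted for the number of levels, 6 groups against 3 codes, so the ranges cannot be set against each other. A share of this kind is above 0 even where a factor has no effect. What the codes stand for is not given, so a culture date, a passage and a handling of RNA cannot be told apart.

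**Figure D2:**
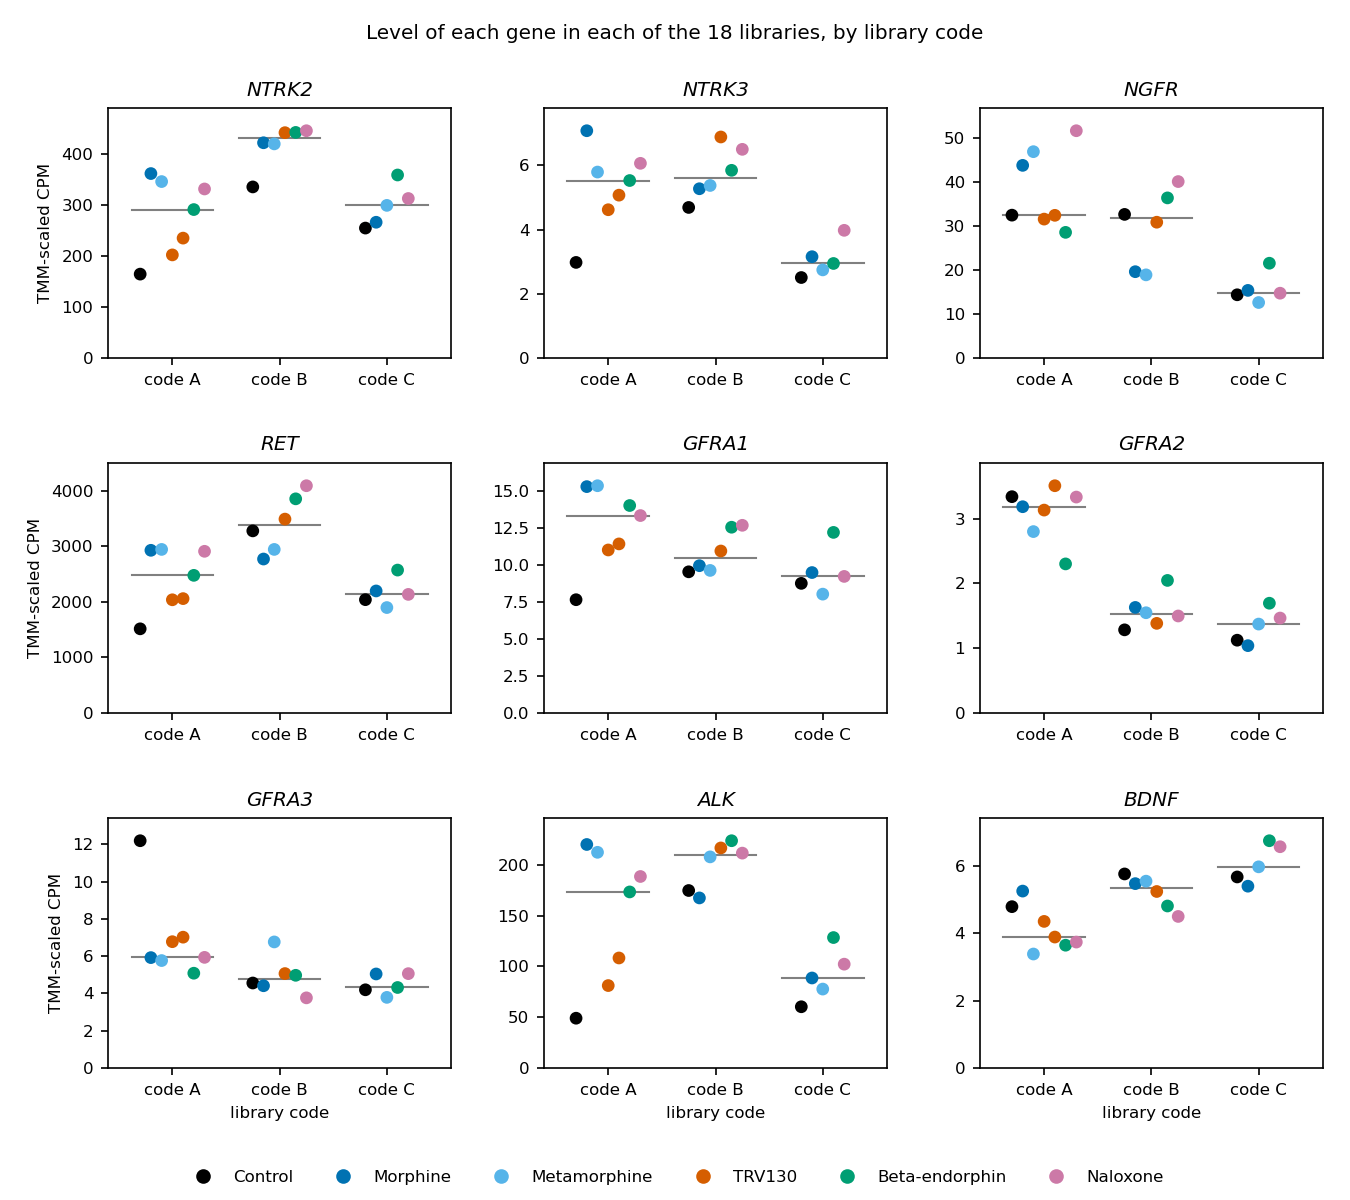
TMM-scaled CPM of each gene in each library, grouped by library code and coloured by treatment; grey lines are medians within a code. NTRK3, RET and ALK are lower in every code C library than in any code B library, and the black Control points of NTRK2 and NTRK3 are the lowest of each code.

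Among the neurotrophin receptors, NTRK2 was highest in code B, and NGFR and NTRK3 were lowest in code C. NTRK2 (chr9:84668551-85027070, plus strand, GRCh38) spans 358.5 kb. It ran from 164.5 through a median of 291.1 to 361.7 CPM in code A and from 335.5 through 432.0 to 445.7 CPM in code B. In code C it stood at 254.8, 266.2, 299.3, 312.8 and 358.9 CPM. All code B libraries other than Control 2 lay above every library of the other codes. NTRK2 was higher in code B than in code A by 0.61 on the log2 scale (SE 0.12, adjusted p = 0.00361) and lower in code C than in code B by a log2 difference of -0.52 (SE 0.14, adjusted p = 0.00428). Without Control 1 and the TRV130 libraries, the difference between codes B and A was 0.375 (adjusted p = 0.0307). Code C against code A gave 0.09 (adjusted p = 0.646).

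NTRK3 (chr15:87859751-88256768, minus strand), the receptor TrkC, spans 397.0 kb and was read by only 58 to 204 counts per library. Its levels ran from 2.98 through 5.53 to 7.08 CPM in code A and from 4.69 through 5.61 to 6.89 CPM in code B. In code C they were 2.51, 2.75, 2.95, 3.16 and 3.98 CPM, all below code B. The difference of code C was -0.91 against code B (SE 0.16, adjusted p = 0.000188) and -0.77 against code A (SE 0.16, adjusted p = 0.00221). Codes A and B overlapped throughout, and their difference of 0.14 did not pass (adjusted p = 0.463).

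NGFR (chr17:49495293-49515017, plus strand) spans 19.7 kb and carried 267 to 1553 counts per library. It ran from 28.6 through 32.5 to 51.8 CPM in code A and from 18.9 through 31.8 to 40.2 CPM in code B. Code C had 12.6, 14.4, 14.8, 15.4 and 21.6 CPM, all below code A. The log2 difference of code C was -1.34 against code A (SE 0.21, adjusted p = 0.000416), the largest of the differences between codes of the 9 genes, and -0.93 against code B (SE 0.21, adjusted p = 0.00126). NGFR shares 202 exon bases with the antisense gene AC006487.1 and 924 with AC015656.1, and the libraries carry no strand. Those genes drew 1928 and 871 counts in all, against 14166 for NGFR. The ratio of NTRK2 to NGFR in RPKM was 1.48 ± 0.331 in code A (SD, n = 7), 3.10 ± 1.08 in code B (n = 6) and 3.93 ± 0.616 in code C (n = 5). Every library of codes B and C exceeded the highest ratio of code A, 2.07, but the lowest of code B, 2.09, did so barely. How often the ratios of other gene pairs separate codes in this way was not determined.

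RET and its co-receptors did not follow one order over the codes. RET (chr10:43077027-43130351, plus strand), with 33585 to 112031 counts per library, ran from 1516 through 2479 to 2946 CPM in code A and from 2773 through 3386 to 4093 CPM in code B. In code C it stood at 1899, 2041, 2136, 2198 and 2574 CPM, and every code C library lay below every code B library. Its log2 difference was -0.68 for code C against code B (SE 0.16, adjusted p = 0.00231) and 0.50 for code B against code A (SE 0.15, adjusted p = 0.0217). The latter was not called without the 3 TRV130 libraries, without Control 1 and the TRV130 libraries, without Control 1, Naloxone 1 and Naloxone 2, or without Control 2, TRV130 3, Beta-endorphin 1 or Naloxone 2 alone, when the values ran from 0.27 to 0.45 with adjusted p of up to 0.22.

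GFRA1 (chr10:116056925-116273467, minus strand), the co-receptor of GDNF, ran from 7.67 through 13.4 to 15.4 CPM in code A and from 9.56 through 10.5 to 12.7 CPM in code B. Code C had 8.05, 8.78, 9.25, 9.51 and 12.2 CPM. The 3 codes overlapped, and the difference of code C from code A, -0.42 (SE 0.14, adjusted p = 0.0282), was lost under 9 of 25 alternatives. The ratio of RET to GFRA1 in RPKM was 267.9 ± 19.3 in code A (SD, n = 7), 437.2 ± 30.3 in code B (n = 6) and 319.6 ± 14.2 in code C (n = 5). Its ranges in code B, 389.2 to 480.5, and in code A, 247.1 to 305.0, did not overlap. The share of other gene pairs with such a separation was not determined.

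GFRA2 (chr8:21690403-21812357, minus strand), the co-receptor of neurturin, had 26 to 103 counts per library. It was highest in code A, with 2.30 through 3.19 to 3.51 CPM, against 1.28 through 1.52 to 2.05 CPM in code B. Code C had 1.04, 1.12, 1.37, 1.47 and 1.70 CPM. Neither code B nor code C overlapped with code A. The log2 differences from code A were -0.98 for code B (SE 0.18, adjusted p = 0.00198) and -1.20 for code C (SE 0.20, adjusted p = 0.000625).

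GFRA3 (chr5:138252379-138274671, minus strand), the co-receptor of artemin, ran from 5.08 through 5.93 to 12.2 CPM in code A and from 3.76 through 4.77 to 6.76 CPM in code B. Code C had 3.79, 4.20, 4.32, 5.04 and 5.06 CPM, all below code A. The highest value, 12.19 CPM, was that of Control 1, and the next was 7.02 CPM in TRV130 2. The difference of code C from code A was -0.57 (SE 0.21, adjusted p = 0.042), and it was lost under 15 of 25 alternatives, among them the fit without Control 1, where it was -0.32 (adjusted p = 0.128).

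ALK varied the most of the 9 genes, by 4.57 times between its lowest and highest library. ALK (chr2:29192774-29921566, minus strand) spans 728.8 kb, the longest of the 9 genes. In code A it split into a low set, Control 1 at 49.01, TRV130 1 at 81.14 and TRV130 2 at 108.3 CPM, and a high set, Beta-endorphin 1 at 173.3, Naloxone 1 at 188.5, Metamorphine 1 at 212.3 and Morphine 1 at 220.0 CPM. Code B ran from 167.4 through 209.7 to 223.7 CPM, close to the high set. Code C had 60.28, 77.69, 88.60, 102.2 and 128.4 CPM, all below code B. The log2 difference of code C was -1.26 against code B (SE 0.24, adjusted p = 0.000471), 2.39-fold lower. Against code A it was -0.72 (SE 0.24, adjusted p = 0.0289); without Control 1 and the TRV130 libraries it was -1.035. This call was lost on leaving out Control 3, Morphine 1, Morphine 3, Metamorphine 1, Metamorphine 3, Naloxone 1 or Naloxone 3, with an adjusted p of up to 0.105.

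BDNF was the only one of the 9 genes with its highest levels in code C. BDNF (chr11:27654893-27722058, minus strand) ran from 3.38 through 3.88 to 5.25 CPM in code A and from 4.49 through 5.35 to 5.75 CPM in code B. Code C had 5.39, 5.67, 5.97, 6.56 and 6.74 CPM, each above every code A library. The difference of code C from code A was 0.56 (SE 0.14, adjusted p = 0.00754), and that of code B from code A, 0.34, did not pass (adjusted p = 0.0646). BDNF shares 701 exon bases with its antisense gene BDNF-AS, which drew 1527 counts over the 18 libraries against 2376 for BDNF, so the 2 cannot be fully separated here. BDNF was thus called higher in code C than in code A, and NGFR, which also binds it, lower.

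**Figure D3:**
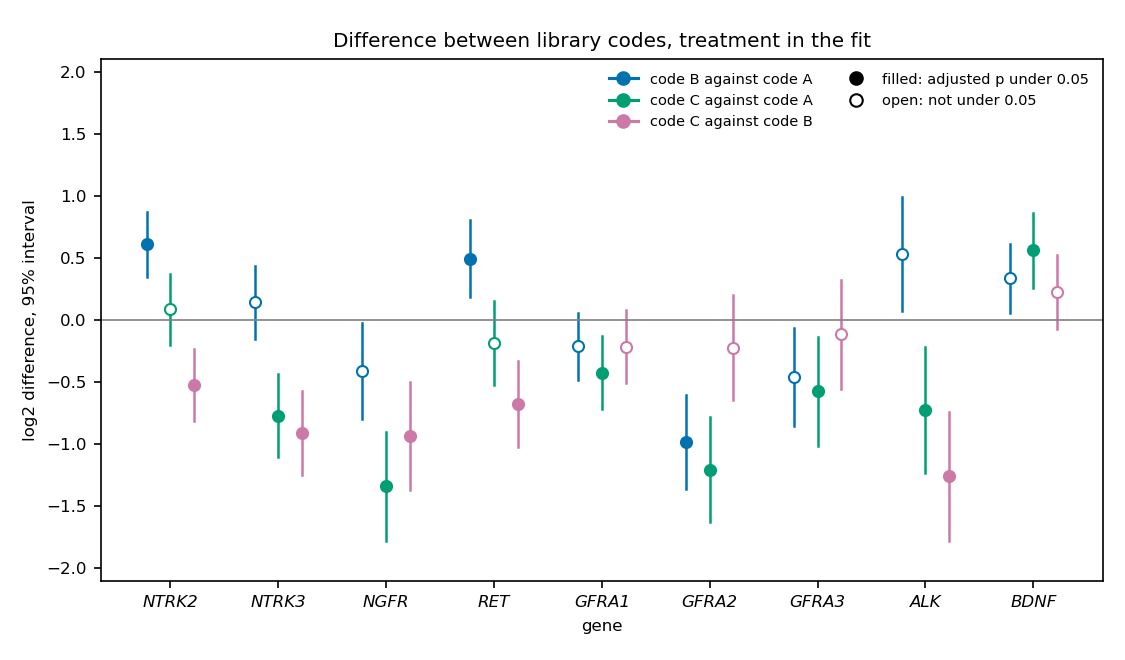
Log2 difference between library codes for each gene, with 95% intervals from the edgeR fit that holds treatment constant; filled circles passed at an adjusted p under 0.05. Code C lies below code B for 8 of the 9 genes, and BDNF alone is called higher in code C than in code A.

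Over the table as a whole, 26.9% of tested genes were called between codes B and A, 33.2% between C and A and 54.8% between C and B. Of the 9 genes, 3 were called between B and A (2 higher and 1 lower in B), 7 between C and A (1 higher and 6 lower in C) and 5 between C and B (all lower in C). The share called lower in C was 17.1% of tested genes against A and 27.8% against B. The median log2 difference of the 9 genes was 0.14, -0.57 and -0.52 in these comparisons, and that of all tested genes 0.02, -0.02 and -0.04. All code C libraries lay below all code B libraries for NTRK3, RET and ALK, as for 20.3% of tested genes, and below all code A libraries for NGFR, GFRA2 and GFRA3, as for 6.16%. All code B libraries lay below all code A libraries for GFRA2 (4.92% of tested genes), and all code C libraries above code A for BDNF (7.43%). Other measures moved with the codes. The summed mesenchymal-state markers were 201.1 to 268.4 CPM in code A, 183.7 to 211.8 in B and 151.5 to 175.9 in C, with VIM and FN1 the most abundant of them, and 4 of these 9 markers, PRRX1 and CD44 among them, averaged under 1 CPM. The markers did not share one order: VIM was highest in code A (178.6, 122.8 and 123.7 CPM in codes A, B and C), FN1 was higher in B than in A (log2 difference 0.41, adjusted p = 0.0417), and SNAI2 was higher in C than in A (0.50, adjusted p = 0.0278) and than in B (0.44, adjusted p = 0.0286). Ribosomal protein genes took 4.30 to 8.87% of counts in code A, 3.17 to 4.96% in B and 6.82 to 8.83% in C. Without Control 1 and the TRV130 libraries the share in code A was 4.30 to 5.11%. The part of either in the differences between codes was not tested.

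None of the 9 genes passed the test in any of the 5 comparisons of a ligand with Control, in the 4 comparisons of another ligand with morphine, in the mean of the 5 ligands against Control or in the test of any difference among the 6 groups. In each of these 0 of 23231 tested genes were called (0%). DESeq2 called 0 of the 9 genes in each as well. In edgeR's test without the code, GFRA1 alone of the 9 genes reached an unadjusted p under 0.05. It did so with beta-endorphin (0.58, SE 0.24, adjusted p = 0.513) and in the mean of the 5 ligands (0.43, SE 0.19, adjusted p = 0.434). The share of all tested genes at that unadjusted level was not determined. The 5 comparisons with Control share the same 3 Control libraries.

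ALK averaged 94.7 ± 69.6 CPM in Control (SD, n = 3), 158.7 ± 66.1 with morphine, 165.9 ± 76.5 with metamorphine, 135.4 ± 71.7 with TRV130, 175.1 ± 47.7 with beta-endorphin and 167.4 ± 57.7 with naloxone. The groups overlapped widely. Its log2 fold change against Control ran from 0.52 for TRV130 to 0.89 for beta-endorphin, and the mean of the 5 ligands stood at 0.76 (95% interval -0.14 to 1.65, adjusted p = 0.461). Without Control 1 this mean was 0.44, without Control 2 it was 1.55 (adjusted p = 0.153) and without Control 3 it was 0.52, so single Control libraries set its size.

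NTRK2 averaged 251.6 ± 85.6 CPM in Control, 350.0 ± 78.6 with morphine, 355.1 ± 60.8 with metamorphine, 293.0 ± 129.9 with TRV130, 364.1 ± 75.8 with beta-endorphin and 363.3 ± 71.9 with naloxone (SD, n = 3 each). Its fold changes ran from 0.22 to 0.53 on the log2 scale, with a mean over the 5 ligands of 0.45 (95% interval -0.08 to 0.98, adjusted p = 0.46). That mean was 0.213 without Control 1 and 0.715 without Control 2. For NTRK3 the 5 fold changes ran from 0.46 to 0.70 and for GFRA1 from 0.35 to 0.58. For RET they ran from 0.15 to 0.42, for NGFR from -0.02 to 0.42 and for GFRA2 from 0.00 to 0.48. GFRA3 ran from -0.54 to -0.15 and BDNF from -0.27 to -0.01, both without a ligand above Control. For GFRA3 this direction rested on Control 1: without it the mean of the 5 ligands was 0.26. RET averaged 2279 ± 906.1 CPM in Control and between 2530 and 3047 CPM in the 5 ligand groups, within the spread of the Control libraries. The mean of the ligands was 0.04 for RET without Control 1 and 0.629 without Control 2, and 0.901 for NTRK3 without Control 2. These fold changes are from the fit without the code, and TRV130 has no library in code C. With the code as a block, TRV130 against Control went from 0.481 to 0.137 for GFRA2 and from 0.255 to -0.096 for NGFR. For ALK it went from 0.516 to 0.333 and for BDNF from -0.267 to -0.087, while NTRK2 stayed at 0.22. The 5 ligands then ran from 0.052 to 0.231 for GFRA2 and from 0.333 to 1.002 for ALK.

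Compared within a code, Control was the lowest library for NTRK2 and NTRK3 each time. All 15 ligand libraries lay above the Control of their own code for NTRK2 and for NTRK3, as for 3.69% of tested genes. The median log2 difference from Control for NTRK2 was 0.92 in code A, 0.40 in code B and 0.26 in code C, and for NTRK3 it was 0.91, 0.31 and 0.28. ALK lay above Control in 14 of 15 ligand libraries, all but Morphine 2, and GFRA1 in 14, all but Metamorphine 3; at least 14 of 15 was reached by 10.8% of tested genes. The median difference for ALK was 1.88 in code A, 0.28 in code B and 0.66 in code C, so the size was not alike across codes. RET lay above Control in 12 of 15, GFRA2 in 9, NGFR in 8, GFRA3 in 6 and BDNF in 4. For GFRA3 the median difference was -1.03 in code A, 0.12 in code B and 0.15 in code C. With the code as a block in edgeR, the mean of the 5 ligands against Control was 0.48 for NTRK2 (SE 0.14, adjusted p = 0.102), 0.53 for NTRK3 (SE 0.17, adjusted p = 0.106), 0.78 for ALK (SE 0.26, adjusted p = 0.107) and 0.37 for GFRA1 (SE 0.15, adjusted p = 0.126). None of these passed. In this fit an unadjusted p under 0.05 was reached for these 4 means. It was also reached for 4 of the 5 ligands each for NTRK2, NTRK3 and ALK, and for 2 ligands for GFRA1. The share of all tested genes at this unadjusted level was not determined, so these 4 genes cannot be said to stand out. After adjustment, 0.0043% of tested genes were called in the mean of the 5 ligands and 0% in each single ligand against Control.

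**Figure D4:**
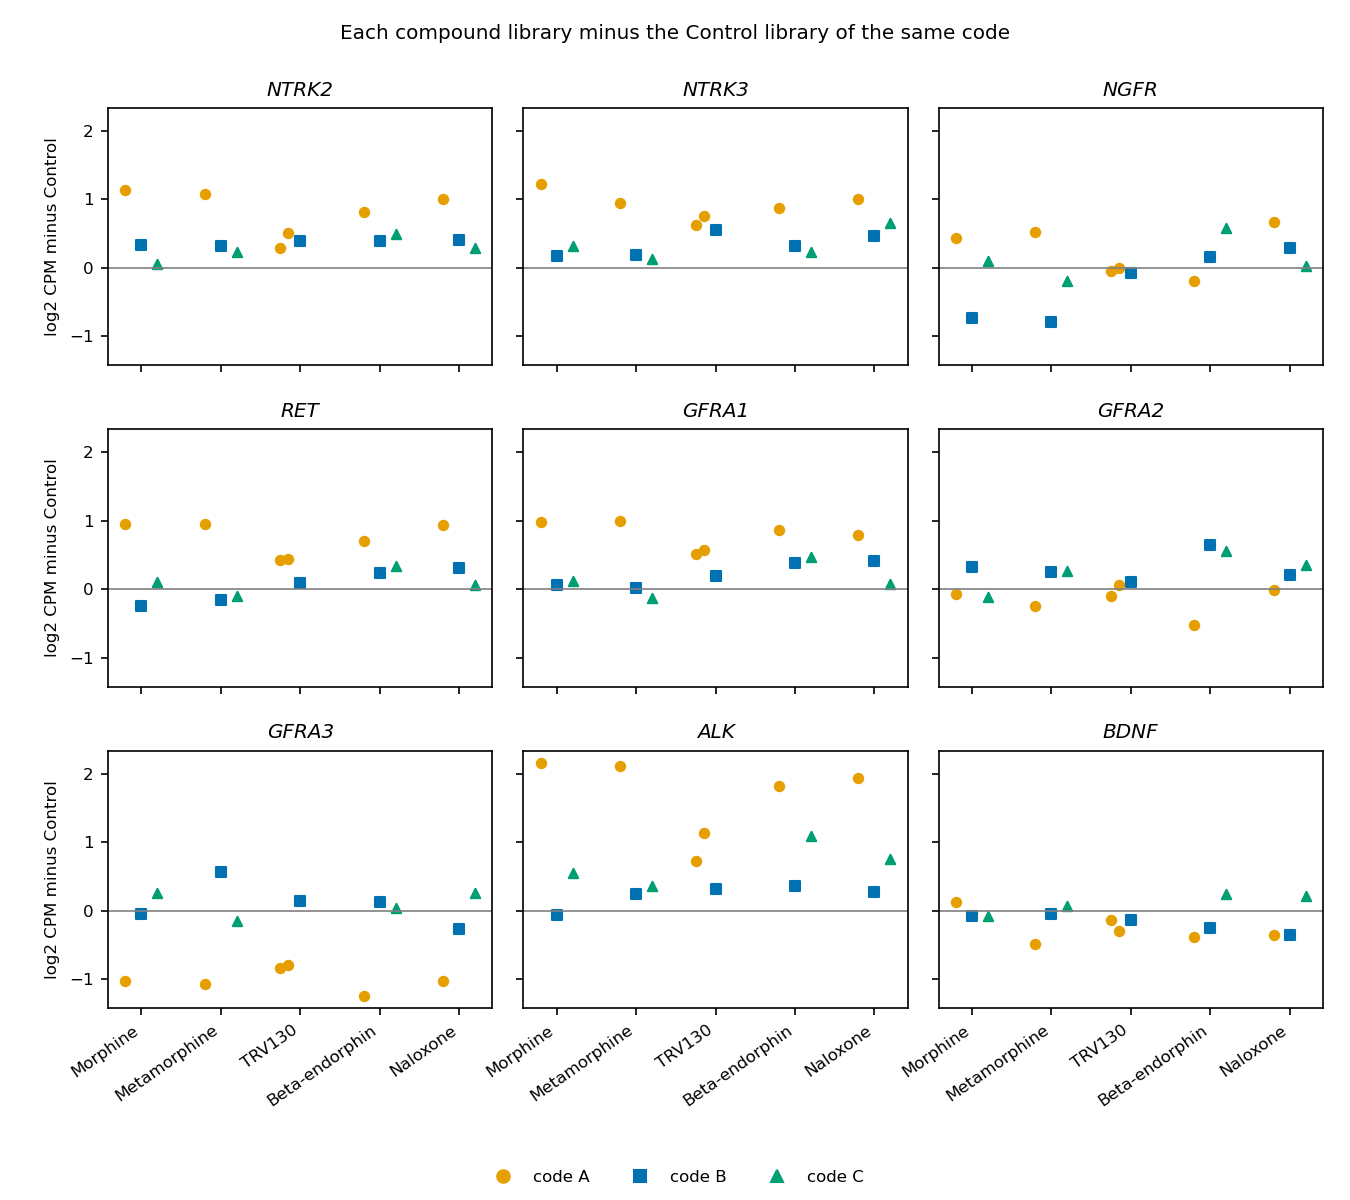
Log2 CPM of each ligand library minus that of the Control library of the same code, per gene and ligand, with a symbol per code. All NTRK2 and NTRK3 points lie above 0; the code A points of ALK reach 2.17 and those of GFRA3 lie between -1.25 and -0.79.

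The Control libraries were also the lowest of their codes for long genes as a class. The median log2 deviation of the 3366 tested genes spanning over 100 kb was -0.37 in Control 1, -0.01 in Control 2 and -0.08 in Control 3, each the lowest of its code. NTRK2, NTRK3, GFRA1, GFRA2 and ALK belong to these genes, while RET spans 53.3 kb, BDNF 67.2 kb, GFRA3 22.3 kb and NGFR 19.7 kb. Within code A, Control 1, TRV130 1 and TRV130 2 were the 3 lowest libraries for NTRK2, NTRK3, RET, GFRA1 and ALK, as for 24.2% of all tested genes and 46% of those spanning over 100 kb. For RET they stood at 1516, 2039 and 2060 CPM, against 2479 to 2946 CPM in the other 4 libraries. They were the 3 highest for GFRA3, as for 24% of tested genes. NGFR, GFRA2 and BDNF were not ordered in this way. Of their counts in protein-coding genes, the same 3 libraries had 9.91%, 11.3% and 11.9% in those spanning over 100 kb. In the other code A libraries this share was 15.3 to 16.3%. Mitochondrial genes took 13.3%, 17.7% and 15.6% of all counts of these 3 libraries, against 6.15 to 10.1% in the other code A libraries. This set of libraries was picked after the values were seen, and the part of these measures in the differences between Control and ligand libraries was not tested. With code in the fit and without Control 1, Naloxone 1 and Naloxone 2, the mean of the 5 ligands against Control stood at 0.31 for NTRK2, 0.37 for NTRK3, 0.45 for ALK, 0.14 for GFRA1 and 0.04 for RET, each with an adjusted p of at least 0.97.

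**Figure D5:**
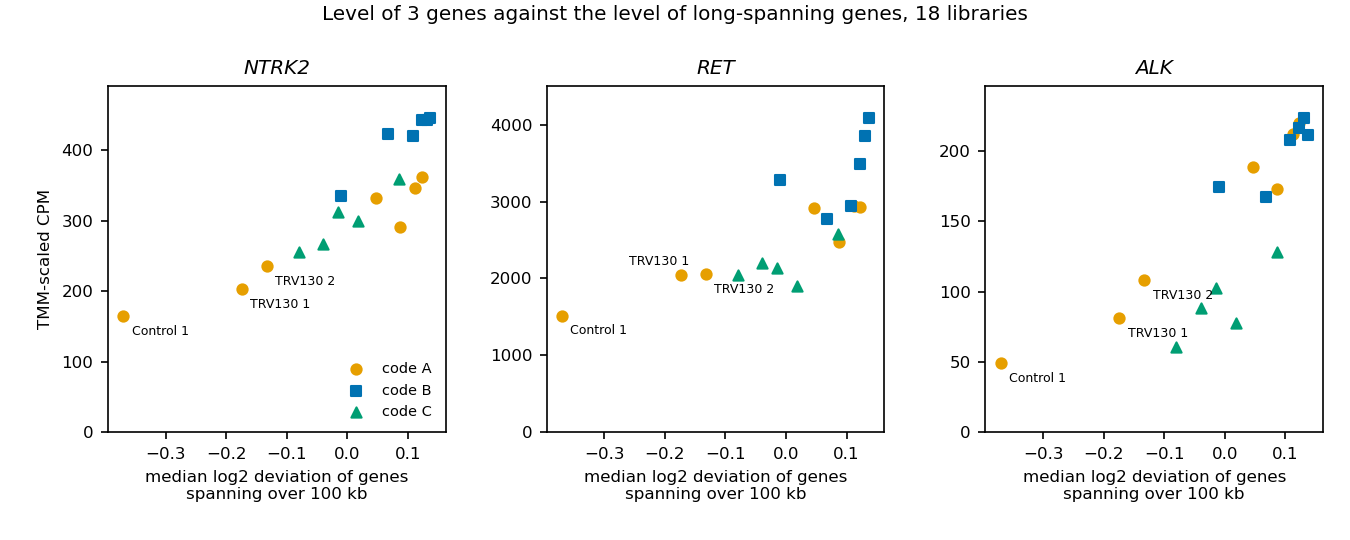
TMM-scaled CPM of NTRK2, RET and ALK against the median log2 deviation of genes spanning over 100 kb, 1 point per library, with the code A libraries of Control and TRV130 named. Control 1, at -0.37, holds the lowest value of each gene.

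The other genes of these pathways were taken from lists of ligands, further receptors, adaptors and p75 partners. Of 12 ligands 9 were abundant enough to test, and GDNF, NTF3 and ALKAL1 averaged 0.0734, 0.0885 and 0.0171 CPM; GDNF is the ligand of GFRA1 and NTF3 that of NTRK3. Among the tested ligands, 4 of 9 differed between codes (44.4%, against 57.8% of all tested genes). Midkine (MDK), a heparin-binding growth factor, was the most abundant ligand at 980.2 CPM on average and 446.4 RPKM. MDK was 0.38 higher on the log2 scale in code C than in code B (SE 0.13, adjusted p = 0.023). Neurturin (NRTN), the ligand of GFRA2, averaged 29.6 CPM and was higher in code C than in code B by 0.52 (adjusted p = 0.00433). Artemin (ARTN), the ligand of GFRA3, averaged 3.90 CPM and was lower in code C than in code B by a log2 difference of -0.98 (adjusted p = 0.00264). Pleiotrophin (PTN), a relative of midkine, was 0.49 higher in code C than in code B (adjusted p = 0.00503). The median log2 fold change of the 9 ligands in the mean of the 5 compounds against Control was -0.29, with 0 of 9 above 0 and none called, beside 0.27 for the 9 genes described above and -0.04 for all tested genes.

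Of 15 other receptors and co-receptors 12 were tested, and 11 of the 12 differed between codes (91.7%, against 57.8% of all tested genes). Between codes C and B, 10 were called lower in C and none higher, where 27.8% of all tested genes were called lower. SORCS1, a sortilin-family receptor, differed by -0.94 between codes C and B (SE 0.13, adjusted p = 2.68e-05), and SORCS2, a relative that pairs with NGFR, by -1.40 (SE 0.21, adjusted p = 5.48e-05). NCAM1, an adhesion molecule that can bind GDNF, differed by -0.69 (SE 0.10, adjusted p = 5.17e-05). RTN4R, the Nogo receptor that can use NGFR as a partner, had another order: it was highest in code A, with differences of -0.65 for code B (adjusted p = 0.00192) and -0.50 for code C (adjusted p = 0.00881). LTK, the closest relative of ALK, averaged 16.1 CPM and differed by -0.93 between codes C and B (adjusted p = 0.000267); it was picked here for its kinship with ALK after its values were seen.

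Of 22 adaptors and early effectors 21 were tested, and 7 of the 21 differed between codes (33.3%, against 57.8% of all tested genes). PLCG1, a phospholipase that Trk receptors activate, differed by -0.72 between codes C and B (SE 0.11, adjusted p = 6.69e-05). GRB2, which links receptors to Ras, was 0.50 higher in C than in B (SE 0.09, adjusted p = 0.000212). The docking protein GAB2 and the adaptor SH2B1 differed by -0.43 (adjusted p = 0.0064) and -0.35 (adjusted p = 0.00879). Of 7 p75 partners all were tested and 6 differed between codes. BEX3 and BEX1, small proteins of which BEX3 binds the death domain of NGFR, were higher in code C than in code B by 1.18 (SE 0.14, adjusted p = 1.21e-05) and 1.31 (SE 0.15, adjusted p = 1.24e-05), and NGFR itself was lower there. RIPK2, a kinase recruited by NGFR, was higher by 0.70 (adjusted p = 0.000179), and ARHGDIA, which NGFR displaces from RhoA, was lower in code B than in code A by a log2 difference of -0.40 (adjusted p = 0.00956). No gene of these 4 lists was called against Control.

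The genes with the most similar pattern were searched among 10698 or 10699 other tested protein-coding genes that averaged 10 CPM or more, by the root mean square difference of centred log2 CPM over the 18 libraries. For NTRK2 they were LHFPL2 at 0.08 and ADAM22 at 0.09, against an SD of NTRK2 itself of 0.41. For RET they were NBPF11 and TSPAN11 at 0.10 and 0.11, and for ALK IGF2R and XYLT1 at 0.15 and 0.18, against an SD of 0.38 for RET and 0.71 for ALK. NTRK3 was nearest to NCAN at 0.16 and CHRNB4 at 0.17, and GFRA1 to SLC38A1 at 0.14 and ANKS6 at 0.15. For NGFR the nearest gene, IGFBP5 at 0.22, was less close, as were ARHGAP36 at 0.24 and DRD2 at 0.24 for GFRA2. GFRA3 was nearest to THY1 and CD320, at 0.18 and 0.19, and BDNF to YIPF4 at 0.16 and MINOS1-NBL1 at 0.17, the latter a read-through gene whose counts overlap those of its neighbours. Among the 9 genes themselves NTRK2 and RET were the closest pair at 0.19, followed by RET and GFRA1 at 0.31, and GFRA3 and ALK the most distant at 0.88. Depth, scaling and code are shared by all these values, so they describe these 18 libraries only.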

How the data were processed

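Per the labels' protocols, RNA of SH-SY5Y cells was isolated with TRIzol and sequenced as paired 150 bp reads from libraries that keep no strand. The deposited table holds the authors' raw counts, 1 row per Ensembl gene ID. HISAT2 and featureCounts are named with the GRCh38 (hg38) build, besides FastQC and DESeq2, per the submitters' processing notes, with versions and settings not given in the sources used here. Gene IDs were those of GENCODE 29, which gave symbols, positions and exon lengths; a gene's exon length is the union of its exons. Columns were matched to samples by name, and 0 columns were left unused.

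The 9 genes, the lists and the comparisons were chosen with earlier results of these data known. Counts were fitted with edgeR 4.0.16 in R 4.3.3 (TMM scaling, filterByExpr with a minimum count of 10, robust quasi-likelihood test, two-sided p adjusted by Benjamini-Hochberg over 23231 genes, threshold 0.05). Ligands were compared in a fit of 1 mean per group over 18 libraries, codes in a fit of group and code. Log2 CPM used a prior count of 2. At total counts of 21211449 to 33123855 per library, GFRA2 and NTRK3 drew the fewest counts of the 9 genes. The SE of the differences between codes was nevertheless largest for ALK. Genes named from each list were up to 4 with the smallest p for any difference among codes; similar genes were the 2 nearest to each of the 9, of which 1 is not reported here. The scripts were tested on simulated data. Alternatives were RLE factors, total counts, no filter, DESeq2 1.42.0, replicate or code as a block, the compared groups alone, and libraries left out. Total counts, the fit without Control 1 and the TRV130 libraries, and the ranges over ligands were added after seeing the data. Promoter windows came from RefSeq; proteins were not analysed here.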

Additional observations from a re-analysis of the deposited data

Results flagged for a closer look

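Within codes, 27 sets of libraries, 9 genes in 3 codes, were examined for a value far from the rest, and chance alone flags about 1 in 20 such sets. In 2 of the 27 a library stood apart by Dixon's criterion. For NTRK2 in code B, Control 2 at 335.5 CPM lay below the other 5 libraries, which ran from 419.9 to 445.7 CPM. For GFRA3 in code A, Control 1 at 12.19 CPM lay above the other 6, which ran from 5.08 to 7.02 CPM. A code holds libraries of different treatments and 1 Control library, so a treatment and a single library cannot be told apart here.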

How the results depend on the processing

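Under 26 or fewer alternatives per comparison, 0 of the 9 genes were called for any ligand; the replicate block also gave 0, and with it the mean of the 5 ligands for ALK was 0.85 (adjusted p = 0.316). Same-numbered libraries had correlated deviations over 0.1 in 29 of 45 pairs (-0.56 to 0.76, median 0.34). Among differently numbered libraries it was 30 of 90 pairs (median -0.14), and among libraries of the same code 36 of 45 (median 0.43). The main fit of the ligands holds neither the number nor the code, and fits with each as a block are given beside it. For codes B and A, 3 genes were called, 6 with no low-count filter and 5 with DESeq2, and 2 to 5 with a library left out (5 without Morphine 1). For codes C and A, 7 were called, and 4 to 7 with a library left out (4 without Morphine 1, Metamorphine 3 or Naloxone 1); the cause was not tested. Any difference among codes was called for 7 to 9 genes over all alternatives. GFRA1 lost its call for C and A with total counts, with no low-count filter, and without Morphine 1, Morphine 3, Metamorphine 1, Metamorphine 3, TRV130 2, Naloxone 1 or Naloxone 3 (adjusted p up to 0.111). The code calls other than RET for B and A and GFRA1, GFRA3 and ALK for C and A held under 25 of 25 alternatives. Signs of uncalled values turned. Without Control 1, Naloxone 1 and Naloxone 2 and with code in the fit, the mean of the ligands was -0.11 for NGFR, 0.20 for GFRA3 and 0.019 for BDNF. With a library left out it ran from -0.14 to 0.34 for NGFR, from -0.12 to 0.80 for GFRA2 and from -0.65 to 0.26 for GFRA3. Without Control 1 and the TRV130 libraries, NTRK3 was -0.081 for B against A and NTRK2 -0.064 for C against A. GFRA3 for C against B ran from -0.212 to 0.093 with a library left out. With total counts, ligand libraries above Control numbered 11 for NGFR and 12 for GFRA2, against 8 and 9.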
